A study of Mus musculus with 6 samples.

Results

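The IL-2, IL-7 and IL-15 system was followed in the leukocytes and stromal cells of B16-F10 melanomas from mice given αPD-1 with or without corin. Its 9 members, of 32285 genes in the count matrices, were chosen by name: the cytokine genes Il2, Il7 and Il15 and the receptor genes Il2ra, Il2rb, Il2rg, Il7r, Il15ra and Il21r. Their UMIs (unique molecular identifiers, each standing for 1 captured transcript) were summed per sample within CD8 T cells, CD4 T cells, Foxp3+ T cells, NK cells, macrophages, monocytes, dendritic cells (DC) and fibroblasts.

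All tumors were grown from B16-F10 cells, a C57BL/6 melanoma line, in female C57BL/6 mice aged 6 to 10 weeks. The αPD-1 group (3 samples) received 150 µg of αPD-1 3 times per week from day 7, and the αPD-1 + corin group (3 samples) received the same antibody and 200 µg of corin daily from day 6. Corin is a small molecule that inhibits the CoREST complex through its LSD1 and HDAC enzymes. CD45+ cells were isolated with magnetic beads from thawed, cryopreserved tumor suspensions and profiled by 5′ single-cell RNA sequencing. Each arm held 10 mice. Which of them gave a sample is not in the labels, so the p-values measure the spread between these samples.

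The αPD-1 samples held 6433 to 7000 barcodes and 52281422 to 63748460 UMIs, and the αPD-1 + corin samples held 9637 to 13228 barcodes and 78092774 to 84276739 UMIs. After filtering, 28865 of 52899 barcodes remained, and 299 barcode sequences occurred in 2 samples. Cd8a reached 551 to 693 CPM (counts per 1000000 UMIs of the lineage) in CD8 T cells, selected on UMIs of Cd8a or Cd8b1. Foxp3 reached 427 to 826 CPM in Foxp3+ T cells, which were selected on it. Col1a1 reached 10149 to 17712 CPM in fibroblasts, whose cluster was named from a list that holds it. These levels follow from the selection and are no independent check of the lineages. The fibroblasts had 14.2 to 62.7 CPM of Ptprc, which encodes CD45, although CD45+ cells had been isolated. CD4 T cells numbered 40 to 73 per αPD-1 sample and 1 to 8 per αPD-1 + corin sample, so they were not tested. Macrophages numbered 767 to 874 and 1185 to 4352 per sample in the same order, and B cells 703 to 1068 and 11 to 48.

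These cytokines signal through the common gamma chain, encoded by Il2rg, which activates JAK1 and JAK3 and then STAT5. IL-2 and IL-15 also use the beta chain encoded by Il2rb, and each has a private alpha chain, encoded by Il2ra (CD25) and Il15ra. IL-7 binds the chain encoded by Il7r (CD127), which keeps naive and memory T cells alive, and high CD25 is a hallmark of regulatory T cells. IL-15 is mostly presented in trans by myeloid and stromal cells that carry IL-15Rα, and it maintains NK cells and memory CD8 T cells.

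Il7r and Il2ra were the members whose difference between the treatments passed the test, both in CD8 T cells, and their promoters are shown for that reason. Each window runs from 250 bases before to 50 bases after the gene's start (RefSeq, GRCm38.p6). Capitals mark motif matches: the STAT element TTCNNNGAA in Il7r, 142 bases before the start, and 2 overlapping matches of the NF-κB consensus in Il2ra, 201 and 200 bases before it.
Il7r, chr15:9529827-9530126, minus strand: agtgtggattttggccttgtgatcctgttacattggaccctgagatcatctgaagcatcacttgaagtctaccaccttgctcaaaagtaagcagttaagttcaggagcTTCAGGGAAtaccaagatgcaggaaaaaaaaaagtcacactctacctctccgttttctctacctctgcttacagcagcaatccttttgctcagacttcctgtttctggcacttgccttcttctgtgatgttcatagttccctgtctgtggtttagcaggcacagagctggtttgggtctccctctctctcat
Il2ra, chr2:11642542-11642841, plus strand: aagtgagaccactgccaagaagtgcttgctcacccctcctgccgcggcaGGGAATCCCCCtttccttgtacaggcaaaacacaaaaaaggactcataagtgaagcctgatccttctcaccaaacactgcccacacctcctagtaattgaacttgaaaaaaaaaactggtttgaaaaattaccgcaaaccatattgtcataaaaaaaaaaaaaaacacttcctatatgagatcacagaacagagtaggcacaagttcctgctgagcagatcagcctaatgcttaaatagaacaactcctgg
The STAT element was searched on both strands and occurred in 8.30% of 32851 promoter windows of this length, and the NF-κB consensus in 4.51%. An interferon response element was also searched, occurred in 3.44% of the windows, and had no match in these promoters. Windows were found for 6 of the 9 members, and a match describes the letters only. In GRCm39, the build of the counts, Il7r lies at chr15:9505874-9530262 on the minus strand, and Il2ra (chr2:11647618-11698004) and Il15ra (chr2:11710101-11739128) both lie on the plus strand. Il2rb lies at chr15:78363456-78395566, Il2rg at chrX:100307984-100311861, Il15 at chr8:83054226-83129874, Il21r at chr7:125202601-125232756, Il2 at chr3:37174672-37180108 and Il7 at chr3:7635054-7678825, whole gene bodies with exons and introns.

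Il2, the T cell growth factor, gave few UMIs. CD8 T cells held 7, 0 and 1 Il2 UMIs without corin and 0, 4 and 4 with corin, and the groups overlapped. The counts were 16 in all CD8 T cells, 5 in CD4 T cells, all of them in 1 αPD-1 sample, 4 in NK cells and 11 in macrophages. Il7, the stromal survival factor for lymphocytes, was scarcer still, with 12 UMIs in macrophages, 5 in DC and 5 in fibroblasts. No Il7 UMI was found in CD8 T cells, where a count of 0 allows a level of up to 0.803 to 18.2 CPM depending on the sample, for counting error only. Neither gene passed the filter on low counts in a lineage, so no treatment difference was tested for them.

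Among the 8 lineages Il15 had its highest means in macrophages and monocytes. In macrophages its level was 52.9, 53.6 and 53.2 CPM without corin and 36.7, 60.4 and 42.3 CPM with corin. In monocytes it was 52.7, 49.7 and 34.0 CPM, and 33.9, 43.1 and 48.8 CPM with corin. Both lineages overlapped each other and overlapped between treatments, whereas the monocyte samples all lay above the DC samples (9.77 to 30.9 CPM), with a mean 2.02 times as high. NK cells had 4.68 to 46.1 CPM, from 13 UMIs, and overlapped DC. CD8 T cells averaged 2.09 CPM and CD4 T cells had no Il15 UMI. Endothelial cells, outside the 8 lineages, had 3.43 to 87.5 CPM from 29 UMIs, with means of 49.1 CPM without corin and 21.8 CPM with it, and these samples overlapped those of macrophages, monocytes and DC.

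Within those lineages Il15 was uneven. Mature DC (156 cells led by Fscn1, Ccl22 and Ccr7) had 112 CPM of Il15 over all samples, against 5.12 CPM in the larger cDC1 subcluster and 18.6 CPM in the larger cDC2 subcluster. Among macrophages, the cluster led by Slc8a1 and Frmd4b had 164 CPM of Il15, with 118 to 150 CPM without corin and 130 to 393 CPM with corin. Il15 in fibroblasts was 2.85 to 18.9 CPM. The subsets were clustered from the same cells, so their levels are descriptions.

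Il15ra, the presenting chain, had its highest mean in fibroblasts. Their levels were 55.0, 70.8 and 51.3 CPM without corin and 45.4, 33.1 and 61.5 CPM with corin, a mean of 52.8 ± 13.0 CPM (SD, n = 6) that was 2.24 times the DC mean. The fibroblast samples did not overlap the DC samples, while DC, monocytes, CD8 T cells and the lineages below them overlapped their neighbors. In DC, Il15ra stood at 31.9, 32.3 and 24.3 CPM without corin and at 17.3, 22.4 and 13.3 CPM with it. The groups did not overlap, and the log2 fold change of -0.65 (SE 0.26) had an adjusted p of 0.544. Macrophages had 16.1, 19.1 and 13.7 CPM of Il15ra without corin and 6.54, 13.1 and 26.9 CPM with it, and monocytes 14.7 to 29.4 CPM, both with overlapping groups. Mature DC held 140 CPM of Il15ra, with 163 to 293 CPM without corin and 74.7 to 153 CPM with corin. These values rest on 156 cells in all, with few cells in some samples (numbers given below with Il2ra). The treatments were not tested in this subset.

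**Figure D1:**
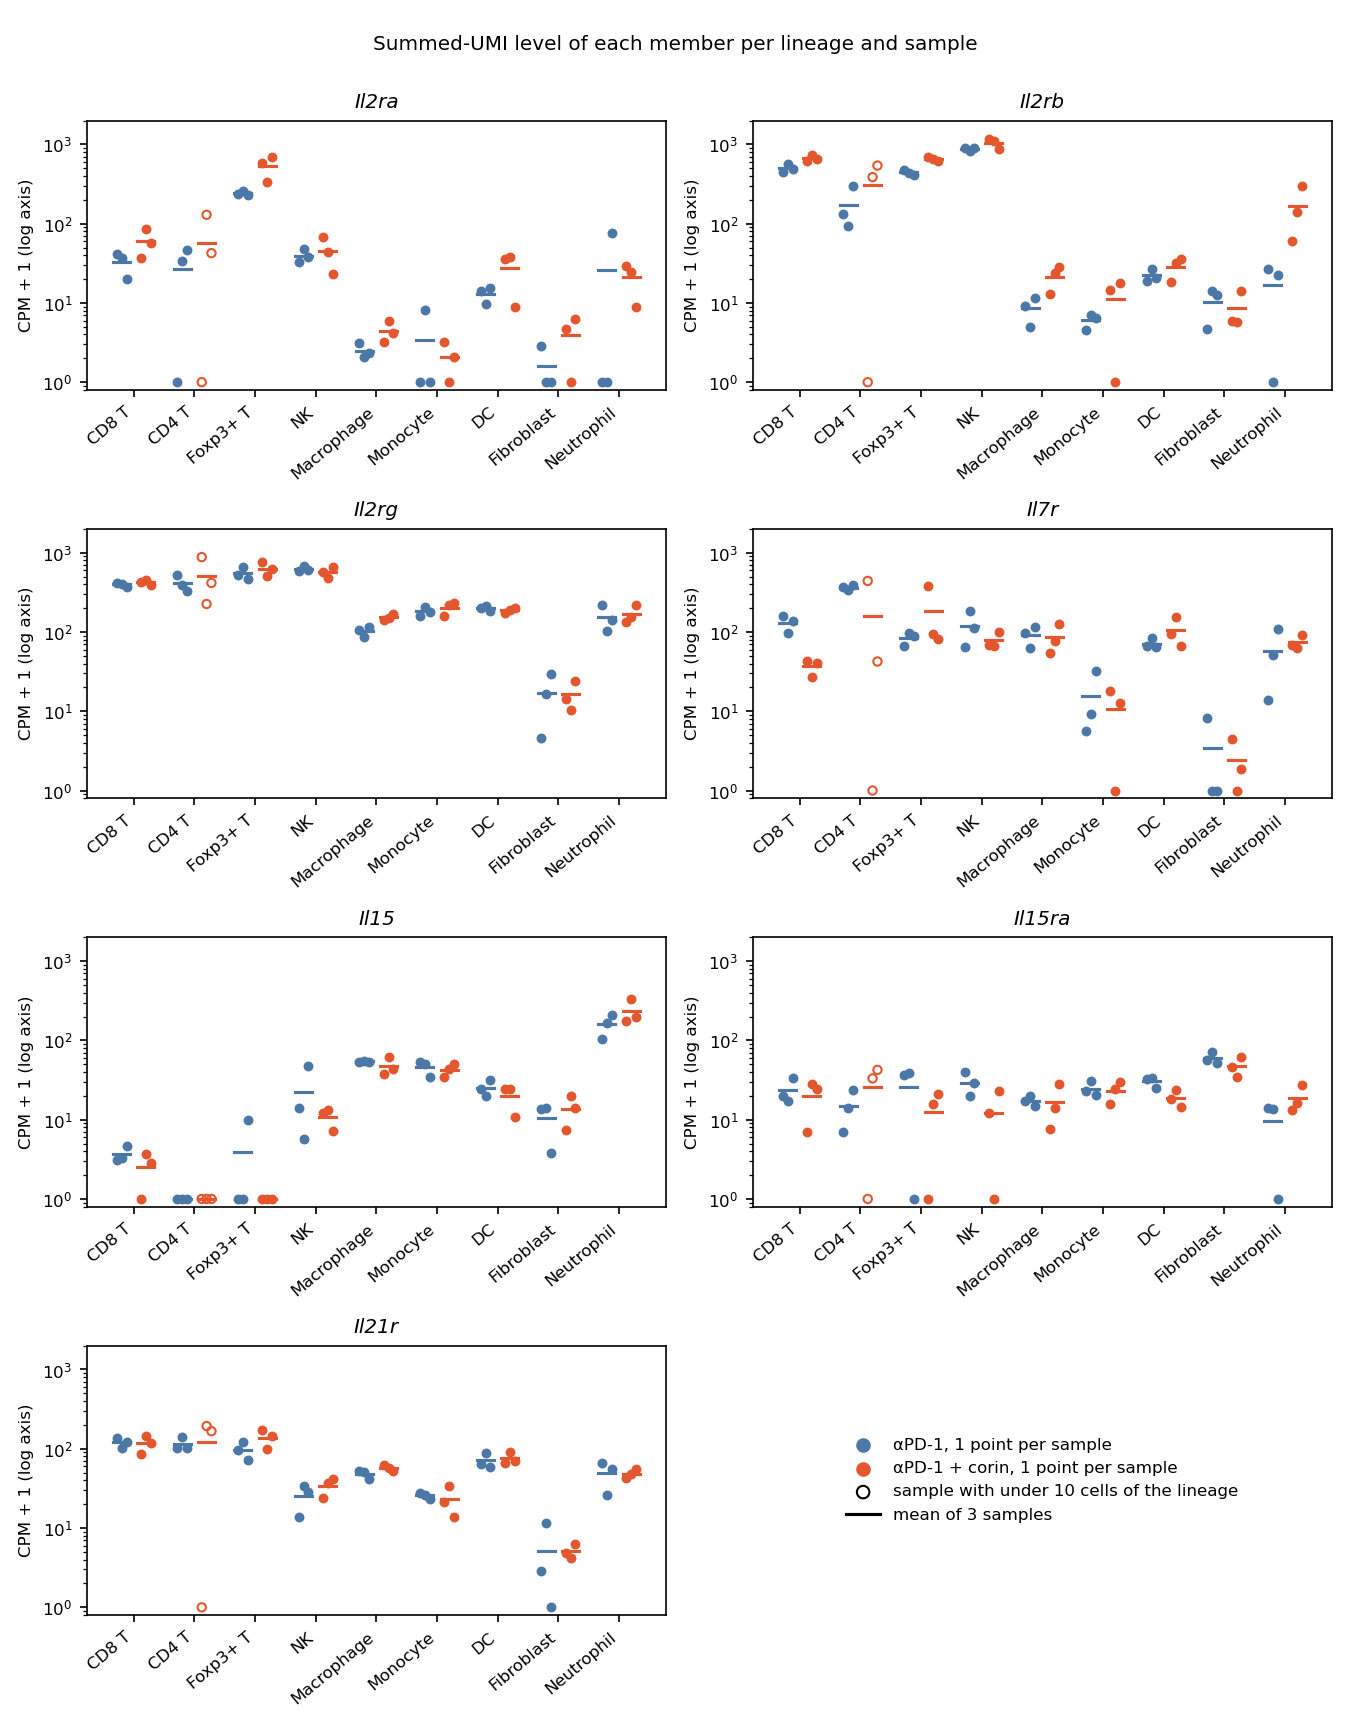
Level of 7 members (CPM + 1, log axis) in 8 lineages and in neutrophils, with 1 point per sample, open points for samples with under 10 cells and lines for the mean of 3 samples, αPD-1 in blue and αPD-1 + corin in red. Il2rb is highest in NK cells, Il2ra in Foxp3+ T cells (229 to 693 CPM), and Il7r in CD8 T cells is lower in all 3 corin samples.

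Il2rg, the shared chain, was present in every lymphoid and myeloid lineage. NK cells had 584, 673 and 608 CPM without corin and 565, 477 and 668 CPM with it, Foxp3+ T cells 459 to 757 CPM, and CD8 T cells 413, 408 and 373 CPM without corin and 424, 448 and 393 CPM with it. The CD8 T cell samples all lay above those of DC (173 to 210 CPM), which overlapped monocytes. Macrophages had 104, 86.7 and 115 CPM without corin and 141, 148 and 165 CPM with corin. Those groups did not overlap, with a log2 fold change of 0.72 (SE 0.15) and an adjusted p of 0.126, and fibroblasts were the lowest of the 8 lineages at 3.66 to 28.5 CPM.

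Il2rb, the chain that IL-2 and IL-15 share, was highest in NK cells, at 912, 832 and 903 CPM without corin and 1153, 1105 and 882 CPM with corin. The NK mean of 965 ± 131 CPM (SD, n = 6) was 1.64 times that of CD8 T cells, and the samples of these lineages did not overlap. In CD8 T cells Il2rb was 452, 559 and 495 CPM without corin and 618, 744 and 657 CPM with it. The groups did not overlap, but the log2 fold change of 0.48 (SE 0.14) missed the threshold, with an adjusted p of 0.0552. Foxp3+ T cells had 481, 435 and 415 CPM, and 688, 649 and 611 CPM with corin, again without overlap (log2 fold change 0.49, SE 0.20, adjusted p 0.416).

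Macrophages had little Il2rb: 8.07, 4.04 and 10.7 CPM without corin and 11.9, 22.6 and 27.0 CPM with corin. All corin samples were higher, and the log2 fold change of 1.59 (SE 0.40) had an adjusted p of 0.165. Summed over 7 NK cell markers, the same macrophage sums held 10.2, 3.83 and 15.0 CPM without corin and 19.4, 23.5 and 34.7 CPM with it, with up to 3 of the 7 at 0 in an αPD-1 sample. The 6 T cell markers summed to 34.0 to 106 CPM and 49.6 to 136 CPM, with none at 0. The 7 neutrophil markers summed to 82.7 to 89.9 CPM without corin and 167 to 1034 CPM with it. The part of such transcripts in the macrophage values of Il2rb and Il2rg was not tested.

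Il2ra, the IL-2 alpha chain, had its highest level in Foxp3+ T cells, at 234, 256 and 229 CPM without corin and 585, 330 and 693 CPM with corin. Their mean of 388 ± 201 CPM (SD, n = 6) was 8.55 times that of CD8 T cells, with no overlap between the lineages. All corin samples lay above all αPD-1 samples, and the log2 fold change was 0.95 (SE 0.28) with an adjusted p of 0.17. The corin samples held 15, 48 and 13 Foxp3+ T cells. Without the second of them the log2 fold change was 1.36 and the adjusted p 0.0263, and with the limit of genes per cell lifted it was 0.29. In the same Foxp3+ T cell sums, the 7 markers of cytotoxic T cells reached 1067 to 2914 CPM without corin and 3029 to 5848 CPM with it. The 5 markers of cycling T cells summed to 1597 to 1822 CPM and 516 to 1275 CPM, and the 6 B cell markers to 95.9 to 222 CPM and 0 to 20.4 CPM, each without overlap. The part of these differences in the Foxp3+ T cell values of Il2ra and Il2rb was not tested.

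In CD8 T cells Il2ra rose with corin, from 40.6, 35.4 and 19.3 CPM to 36.3, 83.8 and 56.5 CPM. The groups overlapped, since the first corin sample lay below 1 αPD-1 sample, and the log2 fold change was 1.00 (SE 0.26, 95% interval 0.44 to 1.56, adjusted p 0.0359). This call was lost when any sample other than the first corin sample was left out, with adjusted p-values of up to 0.142, and in DESeq2 (adjusted p 0.128). In DC, Il2ra was 13.0, 8.69 and 14.4 CPM, and 35.2, 36.6 and 7.99 CPM with corin (log2 fold change 1.25, SE 0.50, adjusted p 0.544). Mature DC carried 159 CPM of Il2ra, and the αPD-1 samples held 15, 6 and 25 of these cells against 64, 41 and 5 in the corin samples. In the DC sums the 6 T cell markers reached 123 to 144 CPM without corin and 156 to 219 CPM with it, and their part was not tested. The third corin sample was lowest in Il2ra and in mature DC, and without it the adjusted p was 0.0301. Macrophages had 1.06 to 2.08 CPM of Il2ra without corin and 2.18 to 4.99 CPM with it (adjusted p 0.242).

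Il7r, the IL-7 receptor chain, fell in CD8 T cells. Its level was 156, 96.7 and 138 CPM without corin and 42.4, 25.7 and 39.4 CPM with corin. The groups did not overlap, and the log2 fold change was -1.77 (SE 0.22, 95% interval -2.25 to -1.29, adjusted p 0.000331).

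The share of naive-like (Tn-like) cells also differed. They were named from Tcf7, Lef1, Ccr7, S1pr1, Satb1 and Dapl1, without Il7r, and made up 45.4 ± 9.64% of CD8 T cells without corin and 2.36 ± 2.14% with it (SD, n = 3 each). The name pooled a subcluster of 763 cells, with Dapl1, Ccr7, Lef1 and Tcf7 among its leading genes, and another of 365 cells. The smaller was led by Auts2 and Rapgef4, with none of these markers among its leading genes. Its median depth was 1497 UMIs, against 1965 in the larger, and their parts in the share were not separated. Il7r stood at 364 ± 88.0 CPM in the Tn-like cells of the αPD-1 samples, and the corin samples held 10 such cells in all, with 1 Il7r UMI. Outside the Tn-like cells Il7r was 33.0 ± 11.3 CPM without corin (22.9 to 45.2 CPM) and 36.2 ± 9.16 CPM with it (25.9 to 43.5 CPM), and the groups overlapped. Fitted without the Tn-like cells, its log2 fold change was 0.21 with an adjusted p of 0.995. The cells outside were pooled over subclusters. A subcluster of 474 cells among them, led by Klra6, Klra1 and Klra7, had Il7r among its leading genes and Cd8a in 20.9% of its cells.

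Il2ra and Il2rb were low in the same Tn-like cells, at 5.77 and 194 CPM. Outside them Il2ra was 43.6 ± 18.0 CPM without corin and 59.5 ± 23.8 CPM with it, and the log2 fold change was 0.59 (adjusted p 0.88). Il2rb there was 627 ± 52.8 CPM and 680 ± 60.6 CPM. No member passed the threshold without the Tn-like cells, and 9 genes did, against 486 with them. Over all CD8 T cells the 7 neutrophil markers summed to 41.0 to 47.1 CPM without corin and 84.9 to 427 CPM with it, and the 6 B cell markers to 112 to 169 CPM and 3.75 to 66.6 CPM. The part of these transcripts in the CD8 T cell values was not tested.

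**Figure D2:**
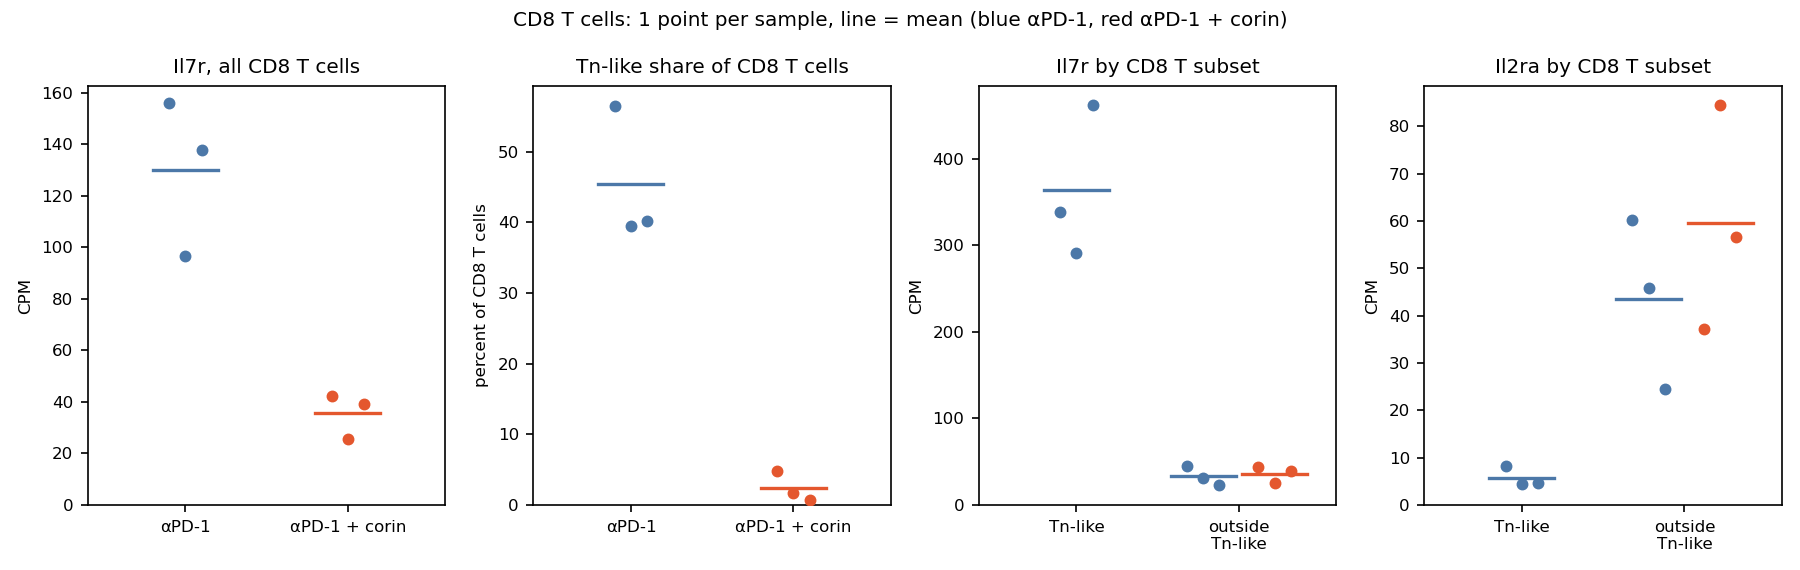
CD8 T cells with 1 point per sample and lines for means, αPD-1 in blue and αPD-1 + corin in red: Il7r level (CPM) over all cells, Tn-like share (percent of CD8 T cells), and Il7r and Il2ra (CPM) inside and outside the Tn-like subclusters. The 10 Tn-like cells of the corin samples are not drawn, and outside the Tn-like cells the Il7r samples of both groups overlap.

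Il7r was not limited to T cells. CD4 T cells of the αPD-1 samples had the highest level, 368, 335 and 385 CPM, and the corin samples gave 2 Il7r UMIs from 16 CD4 T cells. Of the 73, 61 and 40 CD4 T cells without corin, 13, 7 and 8 lay outside the Tn-like subclusters. With corin these were 1, 5 and 6 of 1, 8 and 7. The Tn-like CD8 T cells of the αPD-1 samples had 364 ± 88.0 CPM of Il7r. Foxp3+ T cells had 66.1, 95.9 and 88.2 CPM, and 378, 92.1 and 81.5 CPM with corin, where the high value came from 11 UMIs in 15 cells. NK cells had 64.2, 182 and 111 CPM without corin and 67.8, 66.4 and 100 CPM with it, and the groups overlapped. Monocytes were low, with 0 to 31.2 CPM of Il7r.

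Macrophages held 36.2% of all Il7r UMIs, at 61.9 to 116 CPM without corin and 54.0 to 126 CPM with corin. This share depends on the cells recovered, with 4352 macrophages in the first corin sample alone. The macrophage mean of 88.5 CPM lay near those of NK cells (98.6 CPM) and DC (87.0 CPM), with overlapping samples. Within macrophages the cluster led by Mmp12, Fabp5 and Mmp13 had 249, 170 and 275 CPM of Il7r, and 175, 225 and 411 CPM with corin. The cluster led by Lyve1 and Fcna had 6.96 CPM over all samples, and the lowest sample of the Mmp12 cluster was above the highest of the Lyve1 cluster (32.8 CPM). In DC, Il7r was 65.0, 83.1 and 63.0 CPM, and 92.4, 153 and 65.7 CPM with corin (log2 fold change 0.63, SE 0.27, adjusted p 0.569). Mature DC had 166 CPM of Il7r, and an unnamed DC subcluster led by Ly6d and Klk1, with 442 cells, had 234 CPM. Siglech was found in 96.6% of the cells of this subcluster, and the naming lists held no class of plasmacytoid DC. Without that subcluster and a smaller unnamed one, the DC log2 fold change of Il7r was 0.66 with an adjusted p of 0.582.

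**Figure D3:**
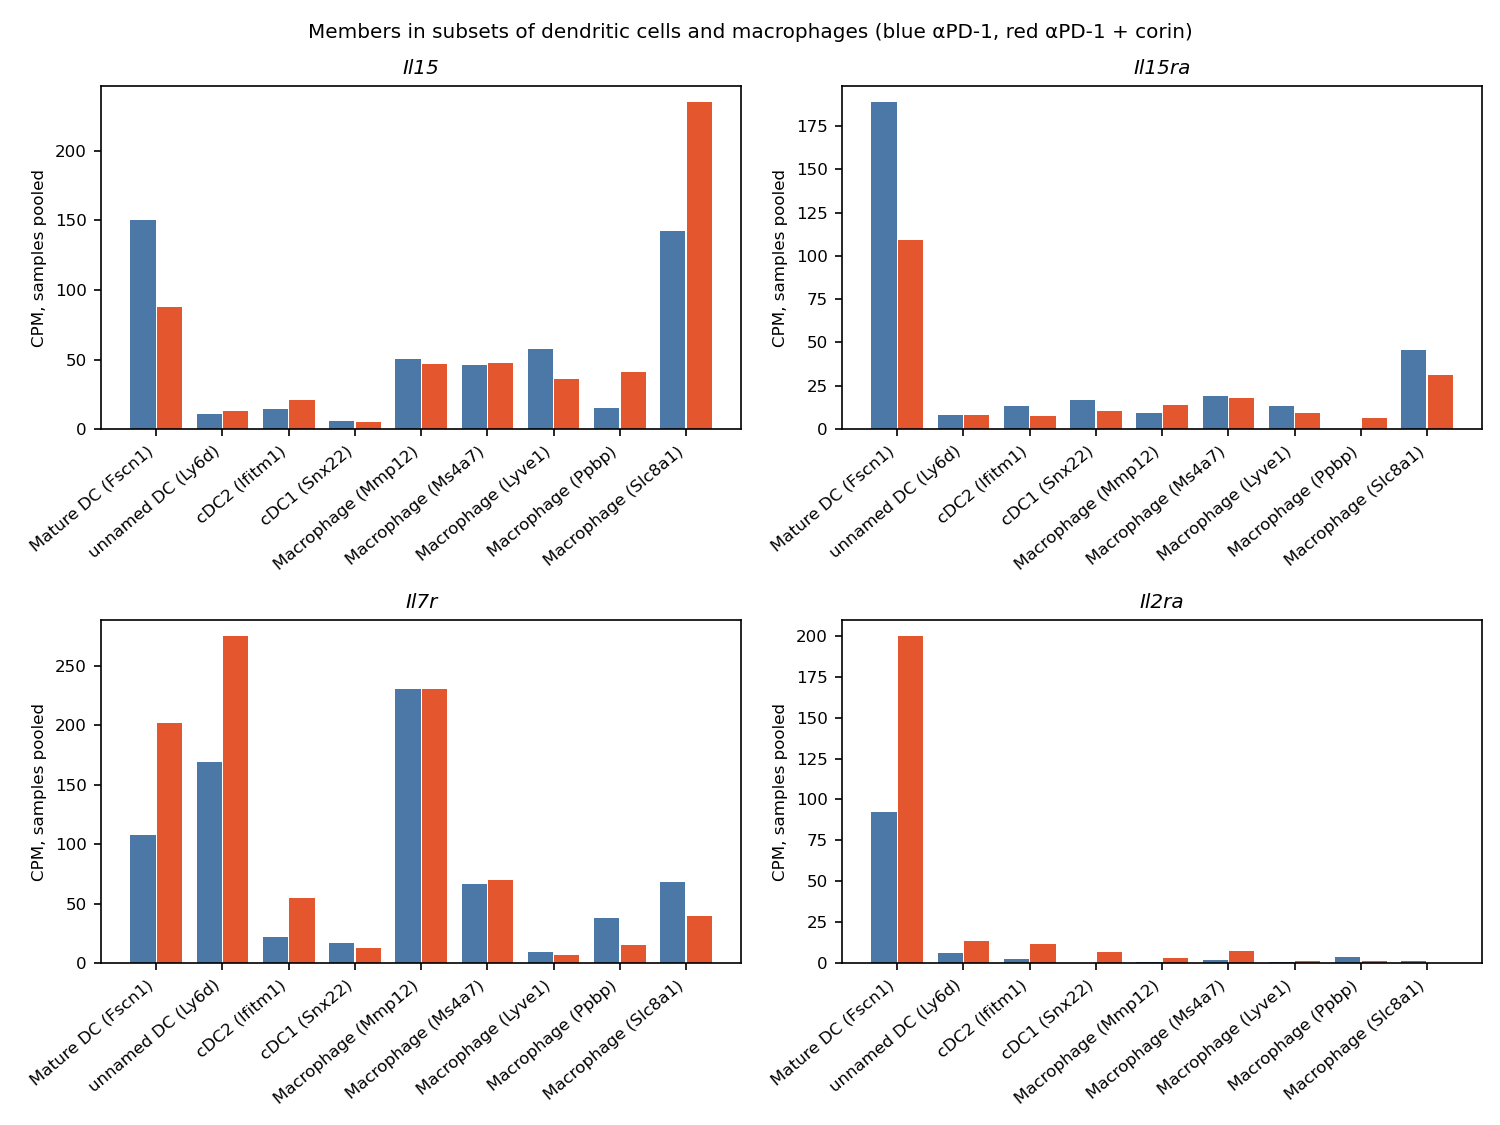
Levels of Il15, Il15ra, Il7r and Il2ra (CPM, samples of a treatment pooled, so without error bars) in 4 DC subclusters and 5 macrophage clusters, named with their leading gene, αPD-1 in blue and αPD-1 + corin in red. Mature DC hold all 4 genes, and Il7r is also high in the Ly6d DC subcluster and the Mmp12 macrophages.

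Il21r, the receptor for the T helper cytokine IL-21, was spread over lymphoid and myeloid cells. CD8 T cells had 137, 102 and 121 CPM without corin and 84.8, 145 and 118 CPM with it, and Foxp3+ T cells 70.6 to 172 CPM, and these lineages overlapped. DC ranged from 58.6 to 90.2 CPM and NK cells from 12.8 to 40.8 CPM, and the highest NK sample lay below the lowest DC sample. B cells had 171, 175 and 132 CPM of Il21r without corin and 69.3, 69.9 and 52.5 CPM with it, the latter from 4, 6 and 1 UMIs. In macrophages Il21r was 51.8, 50.6 and 40.1 CPM, and 60.6, 56.6 and 51.6 CPM with corin (log2 fold change 0.39, SE 0.14, adjusted p 0.242), and the groups overlapped.

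Across 7 tested lineages, 34 member tests were made with edgeR's quasi-likelihood test and 2 passed an adjusted p of 0.05, while 12 had an unadjusted p under it. Over all genes, unadjusted p-values under 0.05 numbered 1665 of 8084 in CD8 T cells, 247 of 2502 in Foxp3+ T cells and 326 of 2893 in NK cells. They numbered 1923 of 11544 in macrophages, 1239 of 7555 in monocytes, 716 of 8463 in DC and 1610 of 6895 in fibroblasts. In CD8 T cells 1 of 6 tested members was higher and 1 lower with corin, where 6.01% of all genes passed (1.31% higher and 4.7% lower). No member passed in the other lineages, where the share of all genes was 0.52% in Foxp3+ T cells, 0.691% in NK cells, 0.0866% in macrophages, 0.979% in monocytes, 0.142% in DC and 2.36% in fibroblasts. DESeq2 called 2 members in macrophages, Il2rb and Il2rg. In that lineage it also called more of all genes than edgeR, which called 10 of 11544, and its count is given below.

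The groups did not overlap in 2 of 6 tested members in CD8 T cells (24.8% of all genes), 2 of 5 in Foxp3+ T cells (15.6%), 3 of 7 in macrophages (25.9%) and 1 of 7 in DC (14.6%). None of 3 in NK cells (16%), of 5 in monocytes (22%) or of 1 in fibroblasts (25.6%) was free of overlap. The median log2 fold change of the tested members was 0.15 in CD8 T cells, 0.49 in Foxp3+ T cells, -0.07 in NK cells, 0.39 in macrophages, -0.09 in monocytes and 0.16 in DC, and the single tested member had -0.33 in fibroblasts. Over all genes tested the medians lay between -0.01 and 0.01 in these 7 lineages. The 22 member tests not described one by one had adjusted p-values from 0.537 to 1.00.

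**Figure D4:**
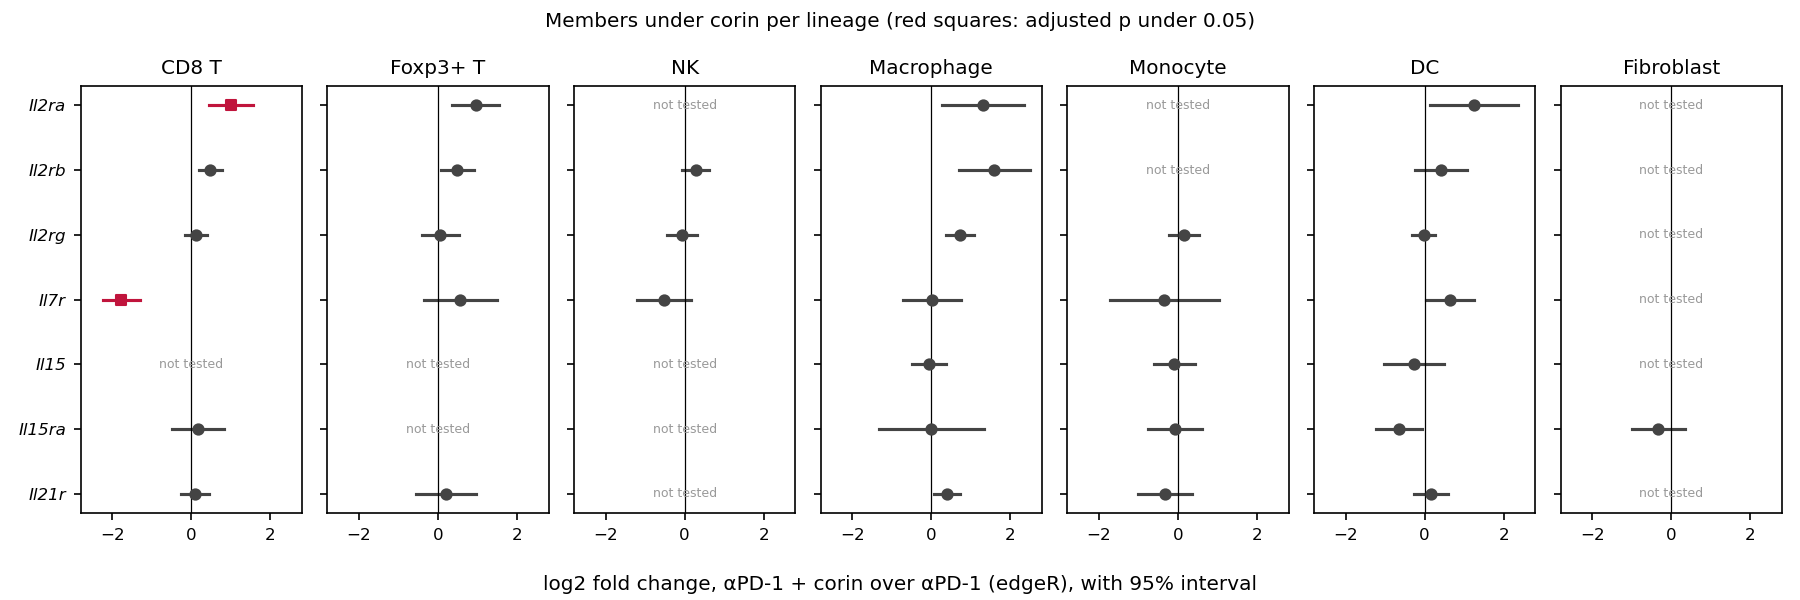
Log2 fold change of each tested member, αPD-1 + corin over αPD-1, with its 95% interval in 7 lineages. The red squares, Il2ra (1.00) and Il7r (-1.77) in CD8 T cells, have an adjusted p under 0.05.

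Of the 22 other genes of the pathway, which cover related receptors, the JAK and STAT transducers, feedback inhibitors and targets, 16 were tested in CD8 T cells and 1 passed, where 6.01% of all genes did. It was Il4ra, the IL-4 receptor chain, which fell from 44.7, 42.2 and 42.2 CPM to 30.3, 25.7 and 23.8 CPM without overlap (log2 fold change -0.73, SE 0.20, adjusted p 0.0443). This call was lost when any sample other than the first corin sample was left out (adjusted p of up to 0.297), in DESeq2 (0.442) and with the replicate number as a block (0.134). Without the Tn-like cells its log2 fold change was -0.31, and with lineages taken from marker UMIs alone it was 0.060. None of 11 in Foxp3+ T cells, 12 in NK cells, 17 in macrophages, 15 in monocytes, 17 in DC or 14 in fibroblasts passed. The median over the tested genes of the list was -0.01 in CD8 T cells, 0.17 in Foxp3+ T cells, -0.12 in NK cells, 0.01 in macrophages, -0.09 in monocytes, 0.03 in DC and 0.04 in fibroblasts.

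To set aside depth, each cell was thinned to 1000 UMIs and the share of cells that still held a UMI was taken. Il2ra was found in 24.6% of Foxp3+ T cells (51.3% unthinned), 4.12% of NK cells, the next of the 8 lineages, and 0.265% of B cells. Il2rb was found in 61.6% of NK cells (86.1% unthinned), 36.9% of Foxp3+ T cells, 36.6% of CD8 T cells and 0.410% of B cells. Il15 was found in 5.36% of macrophages (16.8% unthinned), 3.74% of monocytes and 0.472% of B cells. Il15ra was found in 5.15% of fibroblasts (29.4% unthinned), 2.66% of Foxp3+ T cells and 0.697% of B cells. The B cell shares are means over samples, and the corin samples held 11 to 48 B cells. Median depths per sample were 1207 to 1931 UMIs in B cells, 1773 to 3823 in Foxp3+ T cells, 1904 to 2816 in NK cells, 2967 to 4657 in macrophages and 7029.5 to 9266 in fibroblasts.

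The genes whose levels ran most like each member over 16 points (8 lineages in both treatments, which share libraries) were described by Pearson's r of log2(CPM + 10). For Il2ra they were Tnfrsf18 (0.95), Xlr4a (0.94) and Gabpb1 (0.94), and for Il2rb Gimap5 (0.99), Nkg7 (0.98) and Sytl3 (0.98). For Il2rg they were Rac2 (0.98), Cd69 (0.97) and Cd37 (0.97), and for Il21r Kcnn4 (0.92), Zc3h12d (0.91) and Mcm3 (0.91). Il7r was matched less closely, by Kpna3 (0.89), Mbnl1 (0.85) and Rbm25 (0.85). Il15 was nearest to Tmem106a (0.95), Atf3 (0.95) and Fes (0.94), and Il15ra to Mprip (0.89), Nhsl1 (0.86) and Prrc1 (0.86). Samples were weighted alike, so the point of CD4 T cells with corin is a mean over samples of 1 to 8 cells. For Il7r that point was 160 CPM, from 2 UMIs.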

How the data were processed

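Single-cell 5′ libraries of 6 tumor samples were analyzed. The authors deposited UMI counts per gene and barcode, made with Cell Ranger 8.0 against GRCm39, and the submitters' notes also name Seurat 5.0.11. Barcodes were kept at 600 to 4000 genes if mitochondrial UMIs made up 10% or less. The highest doublet scores (scanpy 1.11.5), at 0.4% per 1000 barcodes, were removed. Cells were clustered with SCTransform (Seurat 5.3.0, sctransform 0.4.2), 20 components and a resolution of 0.8. Of 3000 variable genes, the members, pathway genes and markers were left out. This left 2882 genes for all cells and 2910 for the T and NK cells, which were clustered again. Clusters were named from at least 3 markers, and 2 subclusters of the DC clusters that got no name of their own (442 and 22 cells) stayed in DC. T cells were split by UMIs of Cd8a or Cd8b1, Cd4 and Foxp3. The rules for names and lineages were set after the data were seen.

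UMI counts were summed per sample and lineage and tested with edgeR 4.0.16 (quasi-likelihood, TMM, filterByExpr, Benjamini-Hochberg over all genes of a lineage) where every sample had at least 10 cells. CPM are the sums per 1000000 UMIs. On simulated counts with 4-fold changes the test found 149 of 172 changed genes in CD8 T cells with 15 false calls, and 160 of 177 in macrophages with 16. DESeq2 1.42.0 and the alternatives below were also run. Text names the 9 members, pathway genes past the threshold (at most 4 per lineage by fold change), and the 3 genes most like each member with at least 20 CPM in a lineage. The members and lists were chosen with earlier results of these data known, and the NF-κB motif was added after the promoters were seen. Intervals and limits for counts of 0 (3 counts) cover counting error only.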

Additional observations from a re-analysis of the deposited data

Results flagged for a closer look

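Neutrophils were outside the compared lineages, and their Il15 level stood out as a signal in data that the comparisons did not use. The mean was 197 CPM over 6 samples, with 103, 165 and 206 CPM in the αPD-1 samples and 175, 333 and 198 CPM with corin, and the groups overlapped. Neutrophils held 42.8% of all 5344 Il15 UMIs, of which the second corin sample alone gave 1786. The αPD-1 samples held 19 to 23 neutrophils and 8 to 19 of these UMIs each, and the corin samples 101 to 1202 neutrophils. Il15 reached 183 CPM in the neutrophil cluster led by Asprv1 and 598 CPM in the one led by S100a9.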

How the results depend on the processing

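Il7r in CD8 T cells kept its direction and call in every alternative except the fit without Tn-like cells (0.21), with -2.09 to -1.60 when single samples were left out. Il2ra in CD8 T cells missed the threshold in DESeq2 (1.00), with the limit of genes per cell lifted (0.79) and without Tn-like cells (0.59), and ranged from 0.79 to 1.16 over left-out samples. Il4ra missed it with no filter on low counts (-0.69), in DESeq2 (-0.72), with no upper limit (-0.57), without doublet removal (-0.64), at resolution 1.2 (-0.66), without Tn-like cells (-0.31) and with cells holding UMIs of another lineage left out (-0.70), turned to 0.060 with lineages from marker UMIs alone, and ranged from -0.76 to -0.66 over left-out samples. With no filter, Il2rb in CD8 T cells (0.49), Il2rb (1.62) and Il2rg (0.76) in macrophages, and Il2ra (1.30) and Il7r (0.68) in DC passed, and DESeq2 passed Il2rb (1.59) and Il2rg (0.72) in macrophages. Leaving out single samples gave 0.39 to 0.57 for Il2rb in CD8 T cells, 0.64 to 1.36 for Il2ra and 0.45 to 0.57 for Il2rb in Foxp3+ T cells, 0.96 to 1.66 for Il2ra, 0.31 to 0.47 for Il21r, 1.25 to 1.92 for Il2rb and 0.61 to 0.84 for Il2rg in macrophages, and 0.98 to 1.64 for Il2ra, -0.82 to -0.49 for Il15ra and 0.27 to 0.87 for Il7r in DC. Without the third corin sample, Il2rb, Il2rg and Il21r passed in macrophages (adjusted p 0.0306, 0.0137 and 0.0367), where 2431 genes passed in all. Without the first corin sample, Il2rb in CD8 T cells passed (0.043). The causes were not tested. The other 22 member fold changes passed in none of 349 alternatives and changed direction in 56.

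Members called in CD8 T cells numbered 3 with no filter, 1 in DESeq2, 1 with no upper limit, 1 with cells holding other UMIs left out, 0 without Tn-like cells and 1 to 3 over left-out samples. They numbered 2 in macrophages and 2 in DC with no filter and 2 in macrophages in DESeq2, with 0 to 3, 0 to 1 in DC and 0 to 1 in Foxp3+ T cells over left-out samples, and 0 throughout in NK cells, monocytes and fibroblasts.

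The number of genes called varied more. In CD8 T cells (486) it was 790 with no filter, 206 in DESeq2, 137 with no upper limit, 9 without Tn-like cells and 129 to 580 over left-out samples. In Foxp3+ T cells (13) it was 29 with no filter, 1 in DESeq2, 7 with no upper limit, 1 with LogNormalize, 37 from marker UMIs alone and 1 to 26 over left-out samples. In NK cells (20) it was 9 in DESeq2, 33 without doublet removal, 33 at resolution 1.2, 0 with cells holding other UMIs left out and 12 to 42 over left-out samples. In macrophages (10) it was 733 with no filter, 208 in DESeq2, 5 without doublet removal, 4 with LogNormalize, 5 at resolution 1.2, 47 from marker UMIs alone, 5 with cells holding other UMIs left out and 1 to 2431 over left-out samples, the highest without the third corin sample. In monocytes (74) it was 474 with no filter, 114 with LogNormalize, 133 from marker UMIs alone and 13 to 514 over left-out samples. In DC (12) it was 292 with no filter, 29 in DESeq2, 3 with LogNormalize, 19 at resolution 1.2, 7 from marker UMIs alone, 3 without the unnamed subclusters, 2 with cells holding other UMIs left out and 0 to 62 over left-out samples. In fibroblasts (163) it was 565 with no filter, 274 in DESeq2, 40 with no upper limit, 84 with LogNormalize and 22 to 928 over left-out samples. The highest counts in NK cells, monocytes, DC and fibroblasts came without the third corin sample.

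With the replicate number as a block, Il7r in CD8 T cells was -1.78, Il2ra 1.14 (adjusted p 0.0239) and Il4ra -0.69 (adjusted p 0.134), and 368 genes passed in CD8 T cells, 28 in Foxp3+ T cells, 2 in NK cells and 37 in monocytes. Deviations of same-numbered samples correlated at -0.21 to 0.09. The same number was the closest match for 3 of 3 samples in Foxp3+ T cells, and for 0 or 1 in the other lineages. With 3 samples per group this cannot decide whether the numbers mark a batch, and the labels give none. The fit of DC without the unnamed subclusters was chosen after the data were seen, and no member passed in it. The fit with cells holding other UMIs left out was not run in Foxp3+ T cells and fibroblasts, which fell under 10 cells in a sample. Unthinned shares moved by more than 1 SD for Il2ra (51.3%), Il2rb (86.1%), Il2rg (70.1%), Il15 (16.8%), Il15ra (29.4%) and Il21r (33.7%) in the lineages highest in each. At this depth Il2 and Il7 could be tested in no lineage, and the Foxp3+ T cell values of the corin samples rest on 13 to 48 cells.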
